A study of Mus musculus with 3 samples.

Results

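The MS4A family was followed through macrophages sorted from the colon of mice in which a Groucho corepressor gene had been targeted in myeloid cells. The members were 7 genes chosen by name, Ms4a4a, Ms4a4b, Ms4a4c, Ms4a6b, Ms4a6c, Ms4a6d and Ms4a7, and each was taken from the row whose gene symbol equals that name. Rows were found for 6 of the 7 among 23997 genes, and Ms4a4a was not analysed here. Sorting kept cells with CD64, little Ly6C and no Siglec-F, a choice of resident macrophages over eosinophils and newly arrived monocytes. They came from male C57BL/6 mice, whose age is given as 9 weeks in the protocol and as 8.9 weeks in the sample characteristics. The groups were Tle3cKO (Tle3f/f Lyz2-Cre, 3 mice), Tle4cKO (Tle4f/f Lyz2-Cre, 4 mice) and WT (Lyz2-Cre without a floxed gene, 4 mice). All groups carried Lyz2-Cre, which expresses Cre recombinase from the Lyz2 gene in macrophages, monocytes and neutrophils, so deletion is not limited to colonic macrophages. Cells of 1 genotype were pooled before RNA extraction. Each genotype is therefore 1 library, the spread between mice is unknown, and differences stand without a replicate check or a test.

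MS4A proteins cross the membrane 4 times and keep both ends in the cytoplasm. They sit beside immune receptors in the membrane and alter how those receptors signal, and the best known of them are the B cell antigen CD20, encoded by Ms4a1, and the beta chain of the high-affinity IgE receptor, encoded by Ms4a2. In mice the Ms4a4 and Ms4a6 genes have multiplied into small groups of copies, and several of these and Ms4a7 are macrophage and monocyte genes. Ms4a4a protein associates with the beta-glucan receptor Dectin-1 in macrophages, and human variants in the MS4A cluster go with the amount of soluble TREM2.

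Among the promoters of the members 2 pairs resembled each other, Ms4a4c with Ms4a4b and Ms4a6c with Ms4a6b, and these are shown because the first pair differed widely in level. The promoter of Ms4a4a was no closer to those of Ms4a4c (47.6% identity) and Ms4a4b (46.5%) than the second entry of Ms4a7 was to that of Ms4a4b (47.9%). RefSeq entries for the 250 bases before and 50 after a gene's start (GRCm38.p6) were found for 6 of the 7 members, with no entry for Ms4a6d. The promoter of Ms4a4c lies at chr19:11407411-11407710 and that of Ms4a4b at chr19:11443308-11443607, both on the plus strand. Capitals mark the longest stretch, 20 bases, that is identical in both.
Ms4a4c: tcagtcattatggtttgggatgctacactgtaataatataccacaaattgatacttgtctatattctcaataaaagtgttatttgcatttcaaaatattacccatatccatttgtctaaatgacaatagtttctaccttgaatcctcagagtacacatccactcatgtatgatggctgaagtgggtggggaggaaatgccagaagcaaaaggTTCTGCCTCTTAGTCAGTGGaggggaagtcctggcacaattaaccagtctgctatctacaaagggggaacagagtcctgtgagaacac
Ms4a4b: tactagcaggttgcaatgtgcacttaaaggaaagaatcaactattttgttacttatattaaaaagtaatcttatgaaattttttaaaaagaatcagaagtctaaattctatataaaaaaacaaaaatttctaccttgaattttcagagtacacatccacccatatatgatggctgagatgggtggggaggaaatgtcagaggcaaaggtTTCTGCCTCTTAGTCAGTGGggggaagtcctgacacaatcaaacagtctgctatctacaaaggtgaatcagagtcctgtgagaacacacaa
The best local alignment of this pair covered 183 columns with 88.5% identity, and over the whole 300 bases identity was 72.1%. The promoters of Ms4a6c (chr19:11469118-11469417) and Ms4a6b (chr19:11518309-11518608), also on the plus strand, were a second pair, in which capitals mark an identical stretch of 48 bases.
Ms4a6c: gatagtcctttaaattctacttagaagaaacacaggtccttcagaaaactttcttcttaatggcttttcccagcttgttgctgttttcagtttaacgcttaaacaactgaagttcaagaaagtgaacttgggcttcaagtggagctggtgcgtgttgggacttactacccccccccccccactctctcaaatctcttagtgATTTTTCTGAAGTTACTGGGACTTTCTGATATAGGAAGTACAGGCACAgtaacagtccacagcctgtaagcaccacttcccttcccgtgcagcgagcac
Ms4a6b: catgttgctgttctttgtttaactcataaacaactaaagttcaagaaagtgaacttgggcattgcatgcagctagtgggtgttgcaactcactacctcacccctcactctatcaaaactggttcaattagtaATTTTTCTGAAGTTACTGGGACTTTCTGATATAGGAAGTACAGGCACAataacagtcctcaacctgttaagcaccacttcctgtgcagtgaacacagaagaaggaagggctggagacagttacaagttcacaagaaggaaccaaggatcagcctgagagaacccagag
Their best local alignment covered 232 columns with 81.0% identity. It was shifted, so that the identical stretch began 49 bases before the annotated start of Ms4a6c and 118 bases before that of Ms4a6b, and identity over the whole windows was only 51.2%. Both hold a paired motif of interferon regulatory factors, searched as GAAANNGAA on both strands. The match was GAAAGTGAA in each, 133 bases before the start of Ms4a6c and 206 bases before that of Ms4a6b. Ms4a7 had a match in each of its 2 entries and Ms4a4b and Ms4a4c had none. Of 32851 mouse promoter entries of the same length 8.56% hold this motif. The RUNX motif TGTGGT, of a factor that can bring Groucho proteins to DNA, was found on the reverse strand in Ms4a4c and in no other member's entry, against 16.8% of all entries. The PU.1 motif GAGGAAGT (3.2% of all entries) and the TCF/LEF motif CTTTGAT (3.73%) were found in none. A match to these letters is not a site of binding.

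The deposited values are FPKM, which divides fragments by transcript length and by the size of the library, so levels can be compared between genes. Totals were 569961 FPKM in the library labelled Tle3cKO, 598023 in Tle4cKO and 610714 in WT. The files hold no fragment counts, but the spacing of the lowest values gave a depth of 0.968 times WT for the library labelled Tle3cKO and 1.21 times WT for Tle4cKO. Tle3 had 70.7 FPKM in the library labelled Tle3cKO, 46.9 in Tle4cKO and 38.6 in WT, so the targeted gene was not lower where the label says it was deleted. Tle4 had 11.0 FPKM in the library labelled Tle3cKO, 5.80 in Tle4cKO and 8.50 in WT. A gene-level value can miss the loss of some exons, but the Tle3 values leave the labels of this library and of WT in doubt, and every direction below follows them. Were these labels exchanged, the log2 ratios of the library labelled Tle3cKO against WT would turn their sign. Those of Tle4cKO against WT and of the library labelled Tle3cKO against Tle4cKO would change places, both with the sign turned. The sorted cells had macrophage markers in each library: all 10 listed had a row, and C1qa, a complement chain of resident macrophages, had 1093 FPKM in the library labelled Tle3cKO, 1150.4 in Tle4cKO and 1243 in WT. The 10 summed to 4213 FPKM in the library labelled Tle3cKO, 4444 in Tle4cKO and 4783 in WT. Lyz2 itself was at only 11.7 FPKM in the library labelled Tle3cKO, 11.3 in Tle4cKO and 10.4 in WT.

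Ms4a7, a macrophage gene that in the mouse brain marks macrophages outside the microglia, had the highest level of the members in each library. It had 228 FPKM in the library labelled Tle3cKO, 198 in Tle4cKO and 259 in WT. The highest value was thus in WT and the lowest in Tle4cKO. Ms4a7 ranked 363rd, 437th and 336th of all genes in the library labelled Tle3cKO, Tle4cKO and WT, above 96.7%, 96.1% and 97.0% of the compared genes. Ms4a6d, whose protein binds the receptor VSIG4 in mouse macrophages and restrains the NLRP3 inflammasome, was next. It had 184 FPKM in the library labelled Tle3cKO, 148 in Tle4cKO and 159 in WT, highest in the first and lowest in the second. Ms4a7 and Ms4a6d together held 75.6% of the summed FPKM of the 6 members in the library labelled Tle3cKO, 70.6% in Tle4cKO and 73.6% in WT. That sum was 546 FPKM in the library labelled Tle3cKO, 489.9 in Tle4cKO and 569 in WT. It made up 0.0957% of all FPKM in the library labelled Tle3cKO, 0.0819% in Tle4cKO and 0.0931% in WT.

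The other Ms4a6 copies were lower. Ms4a6c, a gene of mouse monocytes and macrophages, had 63.5 FPKM in the library labelled Tle3cKO, 74.5 in Tle4cKO and 69.7 in WT. Ms4a6b, described in mouse T cells as well as in myeloid cells, had 43.2 FPKM in the library labelled Tle3cKO, 40.3 in Tle4cKO and 41.7 in WT. Its highest value was 1.07 times its lowest, the narrowest range of the 6. The Ms4a4 copies differed most in level. Ms4a4c, an interferon-inducible gene of mouse myeloid cells, had 25.02 FPKM in the library labelled Tle3cKO, 27.8 in Tle4cKO and 36.6 in WT, with both targeted libraries below WT. Ms4a4b, best known from mouse T cells, was the lowest member, at 1.44 FPKM in the library labelled Tle3cKO, 1.33 in Tle4cKO and 1.99 in WT. Of the compared genes 5.32% lay below it in the library labelled Tle3cKO, 5.22% in Tle4cKO and 11.8% in WT.

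The order Ms4a7, Ms4a6d, Ms4a6c, Ms4a6b, Ms4a4c, Ms4a4b was the same in all 3 libraries. Some neighbours in it were close. Ms4a7 was 1.24 times Ms4a6d in the library labelled Tle3cKO, 1.34 times in Tle4cKO and 1.63 times in WT. Ms4a6b was 1.73 times Ms4a4c in the library labelled Tle3cKO, 1.45 times in Tle4cKO and 1.14 times in WT, so the pair nearly met in WT. The ranges of neighbours over the 3 libraries did not overlap for any pair in the order, but with 1 library per genotype this gives no error for either. The widest step was between the copies with the similar promoters: Ms4a4c was 17.4 times Ms4a4b in the library labelled Tle3cKO, 20.9 times in Tle4cKO and 18.4 times in WT. The steps between Ms4a6c and Ms4a6b, the other pair, were 1.47 times in the library labelled Tle3cKO, 1.85 times in Tle4cKO and 1.67 times in WT.

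**Figure D1:**
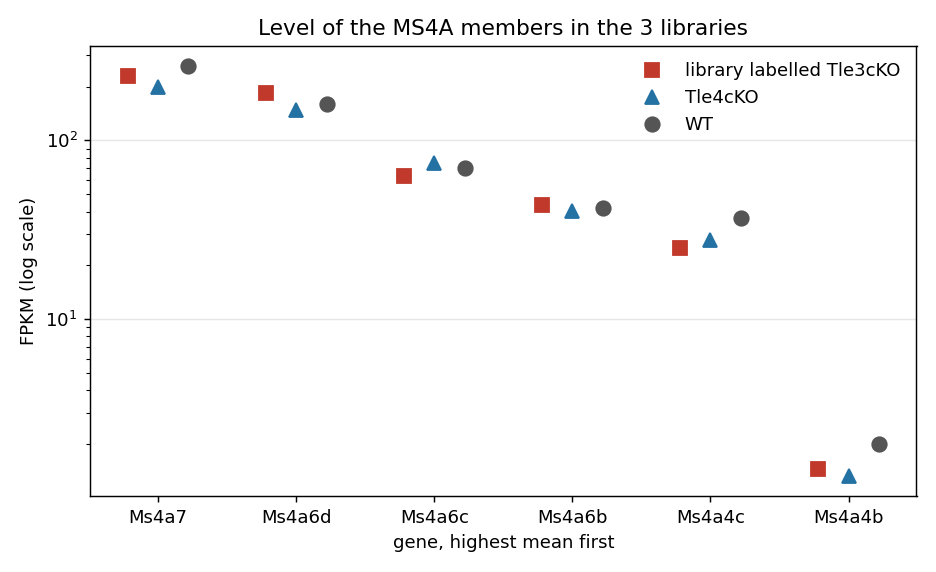
FPKM of the 6 MS4A members on a log axis, 1 point per library (square, library labelled Tle3cKO; triangle, Tle4cKO; circle, WT), genes ordered by mean level. The genes keep 1 order in each library, from 198 to 259 FPKM for Ms4a7 down to 1.33 to 1.99 FPKM for Ms4a4b.

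How colonic macrophages differ when Tle3 is targeted is the question of the library labelled Tle3cKO against WT. Ms4a4c and Ms4a4b were the lowest relative to WT and Ms4a6d the highest. Log2 ratios are of FPKM + 1, and they were -0.53 for Ms4a4c, -0.29 for Ms4a4b, -0.19 for Ms4a7 and -0.13 for Ms4a6c. They were 0.05 for Ms4a6b and 0.21 for Ms4a6d. None of the 6 reached a 2-fold difference, a size reached by 0.423% of the 11114 genes averaging 1 FPKM or more, 0.216% higher and 0.207% lower. In bulk RNA, fewer cells of a type and less RNA per cell cannot be told apart. Members below WT were 4 of 6, against 52.4% of all compared genes, and the median was -0.16, against -0.01 for all. A ratio as low as that of Ms4a4c or lower was found for 1.41% of all compared genes, and one as high as that of Ms4a6d or higher for 13.8%. With the labels of these libraries exchanged, Ms4a4c would be the highest member, Ms4a6d the lowest, and 4 of 6 would be above WT. For Ms4a4b the added 1 FPKM makes the ratio smaller than that of the FPKM themselves, which were 0.723 times WT.

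For Tle4 the same question is put to Tle4cKO against WT. Ms4a7, Ms4a4c and Ms4a4b were lower in Tle4cKO by similar amounts, while the 3 Ms4a6 copies were near WT. The log2 ratios were -0.39 for Ms4a7, -0.39 for Ms4a4c and -0.36 for Ms4a4b. Ratios that low or lower were found for 4.12%, 4.17% and 4.77% of all compared genes. The log2 ratios of Ms4a6d and Ms4a6b were -0.11 and -0.05, and Ms4a6c was the 1 member above WT, at 0.10. No member reached a 2-fold difference, against 0.648% of all compared genes, 0.162% higher and 0.486% lower. Members below WT were 5 of 6, against 50.6% of all, with a median of -0.23, against -0.003 for all. Both comparisons use the same WT library, so a low or high value in it moves both. With the labels of WT and of the library labelled Tle3cKO exchanged, Ms4a4c and Ms4a6c would be above WT and the other 4 members, Ms4a7 among them, below it.

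Set directly against each other, the library labelled Tle3cKO and Tle4cKO differed most in Ms4a6d. Its log2 ratio, library labelled Tle3cKO over Tle4cKO, was 0.32, a value reached or passed by 7.05% of all compared genes. Ms4a7 had a log2 ratio of 0.20, Ms4a6b one of 0.10 and Ms4a4b one of 0.07. Ms4a6c and Ms4a4c were lower in the library labelled Tle3cKO, at -0.23 and -0.15. No member reached a 2-fold difference, against 0.729% of all compared genes, 0.522% higher and 0.207% lower, and 4 of 6 were above 0, against 47.6% of all. The median of the members was 0.08 and that of all genes -0.009.

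**Figure D2:**
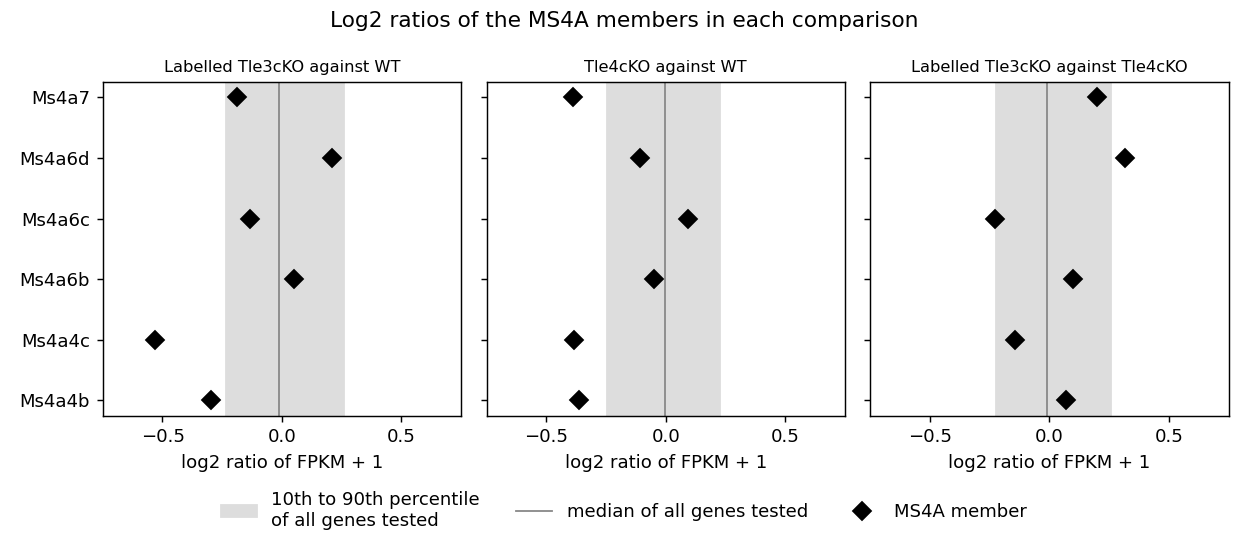
Log2 ratios of FPKM + 1 for the 6 members (diamonds) in the 3 comparisons, with the median of all 11114 compared genes (line) and their 10th to 90th percentiles (grey band). Against WT, Ms4a4c and Ms4a4b lie below the band for both targeted libraries, at -0.53 and -0.29 for the library labelled Tle3cKO and at -0.39 and -0.36 for Tle4cKO, and Ms4a7 lies below it for Tle4cKO, at -0.39.

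All members lie on chromosome 19, within 284 kb between 11321039 and 11604849 (mm10, GENCODE M21). From low to high position they are Ms4a7 (ENSMUSG00000024672.11, 11321039 to 11336146, minus strand), Ms4a4a, Ms4a4c (ENSMUSG00000024675.19, 11404770 to 11427246, plus strand), Ms4a4b (ENSMUSG00000056290.16, 11443553 to 11467055, plus strand), Ms4a6c (ENSMUSG00000079419.4, 11469366 to 11482192, plus strand), Ms4a6b (ENSMUSG00000024677.13, 11516512 to 11531256, plus strand) and Ms4a6d (ENSMUSG00000024679.10, 11586604 to 11604849, minus strand). The longest coding transcript of each has 7 exons. The family cluster in the annotation holds 19 genes over 679 kb. Ms4a4d, the remaining Ms4a4 copy, lies between Ms4a6b and Ms4a6d, and had 10.1 FPKM in the library labelled Tle3cKO, 8.62 in Tle4cKO and 8.29 in WT. Level did not follow position along the cluster, since Ms4a4b, at under 2 FPKM, lies between Ms4a4c and Ms4a6c.

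Outside the members most genes of the cluster were at or near 0. Of 14 other family genes listed, 12 had a row and 5 reached a mean of 1 FPKM. Ms4a10, Ms4a13, Ms4a15, Ms4a18, Ms4a3 and Ms4a5 were listed at 0 in every library, and Ms4a12 and Ms4a14 were not analysed here. Ms4a2, of mast cells and basophils, was listed at 0 in Tle4cKO and WT and at 0.0658 FPKM in the library labelled Tle3cKO. Ms4a8a, described in mouse macrophages under alternative activation, had 4.69 FPKM in the library labelled Tle3cKO, 3.67 in Tle4cKO and 2.34 in WT, with log2 ratios to WT of 0.77 (labelled Tle3cKO) and 0.49 (Tle4cKO). Ms4a1, the B cell gene for CD20, had 6.80 FPKM in the library labelled Tle3cKO, 6.86 in Tle4cKO and 4.41 in WT, with log2 ratios of 0.53 (labelled Tle3cKO) and 0.54 (Tle4cKO). These ran opposite to Ms4a4c and Ms4a4b. The authors' table gives Ms4a1 a merged locus with Ms4a5 and 4930526L06Rik, although the gene models of Ms4a1 and Ms4a5 do not overlap. All 8 listed B and plasma cell genes were above WT in both targeted libraries, against 47.6% (labelled Tle3cKO) and 49.4% (Tle4cKO) of all compared genes. In Tle4cKO 2 of the 8 were at least 2-fold higher, against 0.162% of all. The list, in which Ms4a1 is 1 of 8, summed to 142 FPKM in the library labelled Tle3cKO, 287 in Tle4cKO and 107 in WT. Igj, a plasma cell gene, had 57.9 FPKM in the library labelled Tle3cKO, 192 in Tle4cKO and 46.9 in WT. Cd79a, of the B cell receptor, had 33.9 FPKM in the library labelled Tle3cKO, 29.9 in Tle4cKO and 19.5 in WT. The part of B cells in the Ms4a1 values was not tested.

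Tmem176a and Tmem176b, four-pass proteins related to the MS4A family and encoded on another chromosome, were more abundant than any member. Tmem176b had 341 FPKM in the library labelled Tle3cKO, 302 in Tle4cKO and 346 in WT. Tmem176a had 313 FPKM in the library labelled Tle3cKO, 286 in Tle4cKO and 338 in WT. As for Ms4a7, the lowest value of each was in Tle4cKO and the highest in WT. Of the 5 other family genes compared, 3 were above WT in each targeted library, against 47.6% (labelled Tle3cKO) and 49.4% (Tle4cKO) of all. None reached 2-fold on the log2(FPKM + 1) scale, against 0.423% (labelled Tle3cKO) and 0.648% (Tle4cKO) of all compared genes. In the FPKM themselves Ms4a8a was 2.01 times WT in the library labelled Tle3cKO.

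**Figure D3:**
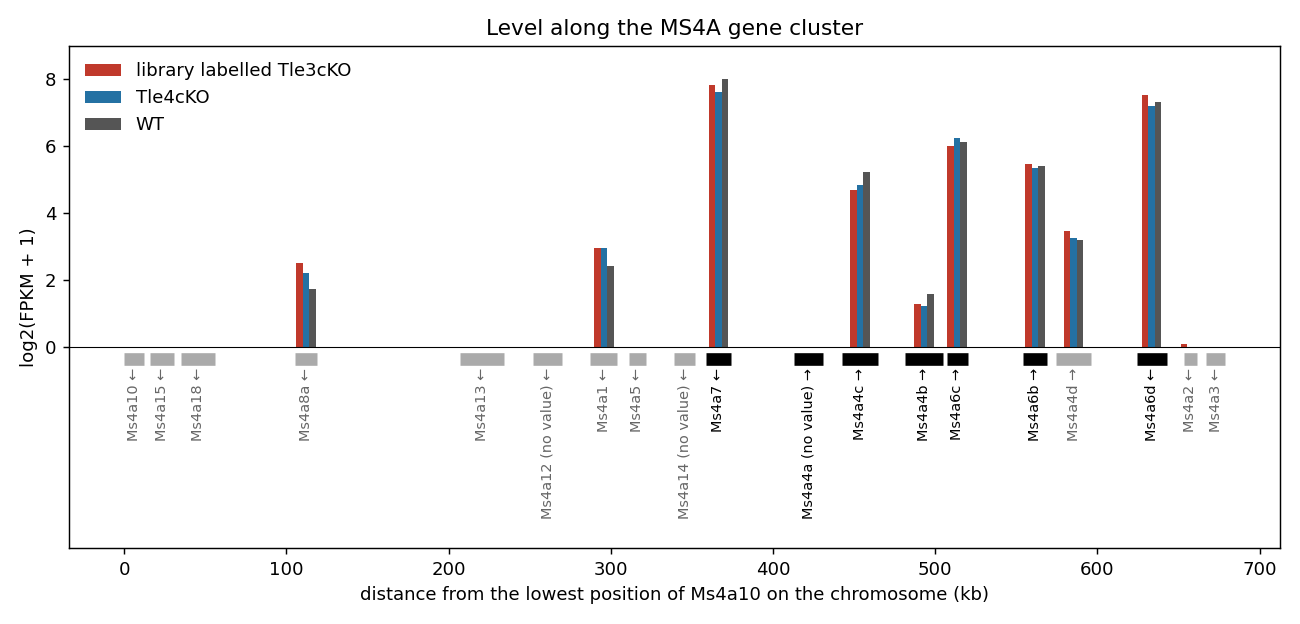
Level of each family gene, as log2(FPKM + 1), along the MS4A cluster on chromosome 19, with bars for the library labelled Tle3cKO (red), Tle4cKO (blue) and WT (grey), members in black and arrows for the strand. The tallest bars are Ms4a7 and Ms4a6d, toward either end of the members, and of the genes with a value at positions below Ms4a7, Ms4a8a and Ms4a1 are above 0.

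Receptors and membrane proteins that MS4A proteins are known to accompany, or that act in the same steps, were listed as partners. Of 14 genes listed, 12 reached a mean of 1 FPKM. None of the 12 differed by 2-fold from WT, as did only 0.423% (labelled Tle3cKO) and 0.648% (Tle4cKO) of all compared genes. For each targeted library 6 of 12 were above WT, against 47.6% (labelled Tle3cKO) and 49.4% (Tle4cKO) of all. Clec7a, which encodes Dectin-1, had 288 FPKM in the library labelled Tle3cKO, 366 in Tle4cKO and 407 in WT. Trem2, a lipid-sensing receptor, had 30.3 FPKM in the library labelled Tle3cKO, 38.6 in Tle4cKO and 25.9 in WT, highest in Tle4cKO and lowest in WT. Vsig4, the partner named for Ms4a6d, was listed at 0 in Tle4cKO and WT and at 0.0554 FPKM in the library labelled Tle3cKO. Nlrp3, the inflammasome sensor, had 135 FPKM in the library labelled Tle3cKO, 118 in Tle4cKO and 127 in WT, in the same order of libraries as Ms4a6d: highest in the library labelled Tle3cKO, lowest in Tle4cKO. Il1b, the cytokine that the inflammasome matures, had 667 FPKM in the library labelled Tle3cKO, 600.3 in Tle4cKO and 815 in WT. Tyrobp, a signalling adaptor of many myeloid receptors, had 989 FPKM in the library labelled Tle3cKO, 1050.0 in Tle4cKO and 1174 in WT. Fcer1g, another, had 720.0 FPKM in the library labelled Tle3cKO, 721 in Tle4cKO and 845 in WT, so both adaptors were highest in WT. Itgb1, an integrin chain, had 108 FPKM in the library labelled Tle3cKO, 116 in Tle4cKO and 119 in WT, and Fcer1a, a chain of the IgE receptor, stayed under 1 FPKM. Tnfrsf18, which encodes GITR, a costimulatory receptor of T cells with which Ms4a4b associates in mice, had 6.43 FPKM in the library labelled Tle3cKO, 10.6 in Tle4cKO and 7.94 in WT. The tetraspanin Cd37, of another four-pass family, had 47.8 FPKM in the library labelled Tle3cKO, 42.6 in Tle4cKO and 30.3 in WT, with log2 ratios to WT of 0.64 (labelled Tle3cKO) and 0.48 (Tle4cKO). For Cd63, Cd81 and Cd9, of that family too, log2 ratios to WT lay between 0.03 and 0.20.

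Ms4a4c stands among interferon-stimulated genes in mouse, and the values of a list of 16 such genes are given beside it. All 16 were below WT in both targeted libraries, with medians of -0.53 (labelled Tle3cKO) and -0.25 (Tle4cKO). Of all compared genes 52.4% (labelled Tle3cKO) and 50.6% (Tle4cKO) were below WT, with medians of -0.01 and -0.003. Both counts rest on the same WT library. None of the 16 reached 2-fold on the log2(FPKM + 1) scale, against 0.423% (labelled Tle3cKO) and 0.648% (Tle4cKO) of all compared genes. In the FPKM themselves Ifi44, with a mean of 1.02 FPKM, was 0.436 times WT in each targeted library. The 16 genes summed to 337 FPKM in the library labelled Tle3cKO, 391 in Tle4cKO and 479 in WT. The log2 ratios of Ms4a4c were -0.53 (labelled Tle3cKO) and -0.39 (Tle4cKO). Isg15, a ubiquitin-like interferon response protein and the most abundant of the list, had 116 FPKM in the library labelled Tle3cKO, 135 in Tle4cKO and 164 in WT. Rsad2, an antiviral enzyme and the next in level, had 39.1 FPKM in the library labelled Tle3cKO, 47.2 in Tle4cKO and 47.3 in WT. The promoter entry of Ms4a4c has no match to the paired motif. Ms4a6c and Ms4a6b, whose promoters hold the paired motif, were closer to WT than Ms4a4c. Their log2 ratios were -0.13 and 0.05 in the library labelled Tle3cKO and 0.10 and -0.05 in Tle4cKO. Ms4a7, which holds the motif in both of its entries, had log2 ratios of -0.19 (labelled Tle3cKO) and -0.39 (Tle4cKO), the second as low as that of Ms4a4c.

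Ms4a7 did not have the ratios of the list of long-lived macrophage markers, genes of the population that stays in the gut wall. All 9 compared markers were above WT in the library labelled Tle3cKO, with a median of 0.44, and 8 of 9 were in Tle4cKO, with a median of 0.47. Of all compared genes 47.6% (labelled Tle3cKO) and 49.4% (Tle4cKO) were above WT. On the log2(FPKM + 1) scale Cd163, a scavenger receptor, was the 1 marker at least 2-fold higher in the library labelled Tle3cKO. None was in Tle4cKO on that scale. The share of all compared genes at least 2-fold higher was 0.216% (labelled Tle3cKO) and 0.162% (Tle4cKO). Cd163 had 8.98 FPKM in the library labelled Tle3cKO, 5.94 in Tle4cKO and 2.92 in WT. In the FPKM themselves Cd163 was 2.03 times WT in Tle4cKO, and Cd209f, with a mean of 1.16 FPKM, was 2.72 times WT there. The log2 ratios of Ms4a7 were -0.19 (labelled Tle3cKO) and -0.39 (Tle4cKO). Pf4, a chemokine and the most abundant of the list, had 372 FPKM in the library labelled Tle3cKO, 316 in Tle4cKO and 305 in WT, with log2 ratios to WT of 0.28 (labelled Tle3cKO) and 0.05 (Tle4cKO), under the medians. The mannose receptor gene Mrc1 had 98.7 FPKM in the library labelled Tle3cKO, 98.7 in Tle4cKO and 90.3 in WT. Of 7 monocyte genes 3 exceeded WT in the library labelled Tle3cKO and 4 did in Tle4cKO. Ccr2, the chemokine receptor of fresh monocytes, had 12.3 FPKM in the library labelled Tle3cKO, 28.3 in Tle4cKO and 28.3 in WT, more than 2-fold lower in the first. Chil3 had 0.989 FPKM in the library labelled Tle3cKO, 0.0830 in Tle4cKO and 2.50 in WT, more than 2-fold lower in the second on the log2(FPKM + 1) scale. Ly6c2 was also below WT in both, with 5.98 FPKM in the library labelled Tle3cKO, 6.52 in Tle4cKO and 9.38 in WT. Plac8 had 150.4 FPKM in the library labelled Tle3cKO, 155.9 in Tle4cKO and 146 in WT. S100a8 had 93.5 FPKM in the library labelled Tle3cKO, 102 in Tle4cKO and 81.4 in WT.

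**Figure D4:**
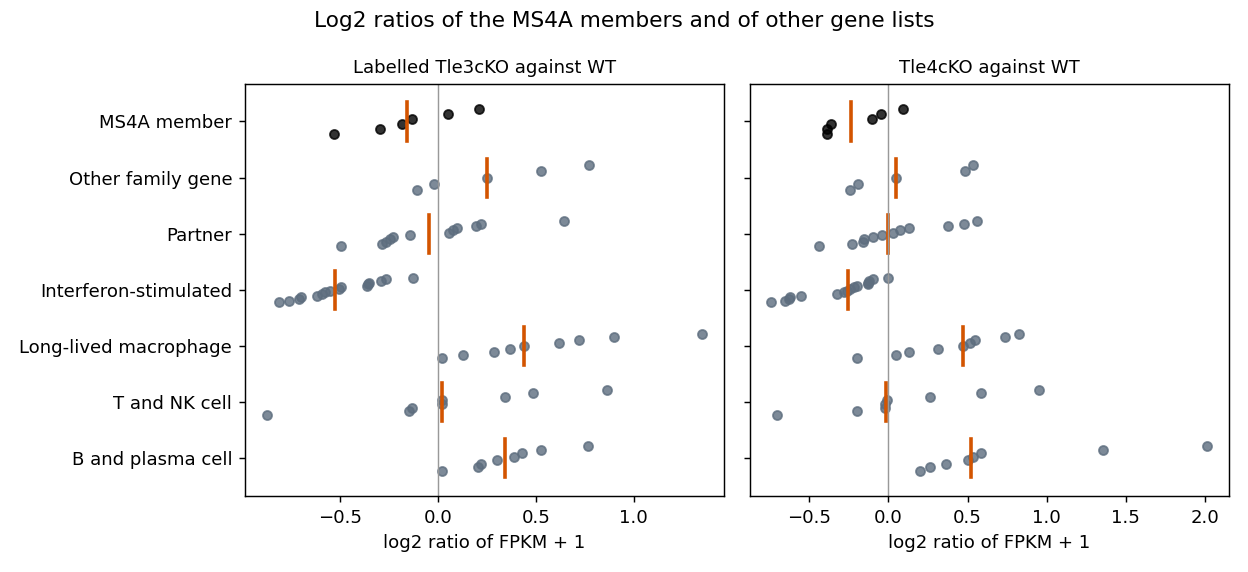
Log2 ratios of FPKM + 1 against WT for the library labelled Tle3cKO (left) and Tle4cKO (right), 1 point per compared gene and an orange line at each list's median. The members have medians of -0.16 and -0.23, between those of the interferon-stimulated genes (-0.53 and -0.25) and those of the long-lived macrophage markers (0.44 and 0.47).

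Because Ms4a4b and Ms4a6b are also T cell genes, T and NK cell markers were set beside them. The 3 chains of the T cell receptor complex, Cd3d, Cd3e and Cd3g, summed to 3.46 FPKM in the library labelled Tle3cKO, 3.92 in Tle4cKO and 1.78 in WT. These chains, of which 2 had a mean under 1 FPKM, were lowest in WT, where Ms4a4b was highest. Cd2 and Lck were lowest in WT too. Cd2 had 12.6 FPKM in the library labelled Tle3cKO, 13.6 in Tle4cKO and 8.72 in WT. Lck had 2.04 FPKM in the library labelled Tle3cKO, 1.87 in Tle4cKO and 1.40 in WT. Other genes of the list, Thy1, Nkg7 and Ccl5, were highest in WT as Ms4a4b was, but Thy1 and Nkg7 were nearly as high in Tle4cKO. Nkg7 had 1.23 FPKM in the library labelled Tle3cKO, 1.40 in Tle4cKO and 1.44 in WT. Thy1 had 3.59 FPKM in the library labelled Tle3cKO, 4.05 in Tle4cKO and 4.09 in WT. The whole list of 15 summed to 593.7 FPKM in the library labelled Tle3cKO, 593.7 in Tle4cKO and 710.5 in WT, most of it from Il7r and Ccl5. Il7r had 342 FPKM in the library labelled Tle3cKO, 332 in Tle4cKO and 337 in WT. Ccl5 had 154 FPKM in the library labelled Tle3cKO, 173 in Tle4cKO and 283 in WT. No gene of it was at 0 in all libraries, and 8 reached a mean of 1 FPKM, 5 of them higher than WT in the library labelled Tle3cKO and 3 of them in Tle4cKO. The part of T cells in the values of Ms4a4b and Ms4a6b was not tested. Of the mast cell and basophil list 7 of 9 genes had a mean under 1 FPKM. Kit, its most abundant, had 19.5 FPKM in the library labelled Tle3cKO, 24.4 in Tle4cKO and 18.6 in WT. Mcpt1 had 0.894 FPKM in the library labelled Tle3cKO, 0.509 in Tle4cKO and 2.03 in WT, at least 2-fold lower in Tle4cKO than in WT. Of 4 eosinophil genes Epx was at 0 in every library, and Siglecf, found under its synonym Siglec5, had 2.48 FPKM in the library labelled Tle3cKO, 2.07 in Tle4cKO and 2.90 in WT. Ccr3 had 0.396 FPKM in the library labelled Tle3cKO, 0.470 in Tle4cKO and 0.623 in WT. Prg2 ran the other way, with 0.191 FPKM in the library labelled Tle3cKO, 1.06 in Tle4cKO and a listed 0 in WT. The 7 epithelial genes summed to 4.88 FPKM in the library labelled Tle3cKO, 20.6 in Tle4cKO and 2.50 in WT. Of 4 compared, 3 were at least 2-fold above WT in Tle4cKO on the log2(FPKM + 1) scale, against 0.162% of all compared genes. The part of epithelial cells in the lower values of Ms4a7 in Tle4cKO was not tested. Agr2 had 0.971 FPKM in the library labelled Tle3cKO, 8.10 in Tle4cKO and 0.468 in WT. Epcam had 2.02 FPKM in the library labelled Tle3cKO, 3.14 in Tle4cKO and 1.20 in WT.

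Ms4a4c was the 1 member whose log2(FPKM + 1) spanned at least 0.5 over the libraries. Likeness to it was measured as the Euclidean distance between mean-centred log2(FPKM + 1) over the 3 libraries. Among 7654 other genes averaging 5 FPKM or more, and naming no predicted or Riken-clone gene, small RNA gene, antigen receptor segment or merged row, the closest were Isg20, an interferon-induced exonuclease (distance 0.0097), Commd10 (0.016) and Tm4sf19, a four-pass membrane protein gene (0.032). Isg20 had 5.50 FPKM in the library labelled Tle3cKO, 6.25 in Tle4cKO and 8.44 in WT. Commd10 had 9.35 FPKM in the library labelled Tle3cKO, 10.5 in Tle4cKO and 14.2 in WT. Tm4sf19 had 46.7 FPKM in the library labelled Tle3cKO, 50.1 in Tle4cKO and 67.1 in WT. In all, 40 genes lay within a distance of 0.1, and the likeness rests on 3 points per gene.

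Copies of a gene can trade reads, so the sequence shared between members bears on each value. Coding sequences of Ms4a4b and Ms4a4c were 91.8% identical, the highest of the member pairs. Those of Ms4a6b and Ms4a6d were 80.2% identical, of Ms4a6b and Ms4a6c 74.6% and of Ms4a6c and Ms4a6d 67.3%. Ms4a7 was at most 52.1% identical to any other member. Of the distinct 50-base windows in coding transcripts of Ms4a4c 8.19% also occurred in another gene, mostly Ms4a4b, and of those of Ms4a4b 4.19% did. In numbers these were 143 of 1747 windows for Ms4a4c and 197 of 4701 for Ms4a4b. The share was 5.89% for Ms4a6b, 2.69% for Ms4a6d and 0 for Ms4a7. For Ms4a6c it was 56.9%, but 11.3% on the same strand, since the antisense gene BE692007 overlaps it. The labels do not say whether the libraries kept strand. If they did not, reads from the 55.4% of Ms4a6c windows shared with that gene cannot be told apart. Of the 6 measured members Ms4a7 and Ms4a6d, the highest in level, had the smallest shares of such windows, and Ms4a4a had none. The low level of Ms4a4b beside its near-copy Ms4a4c is uncertain to the extent that shared reads were divided by estimation.

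**Figure D5:**
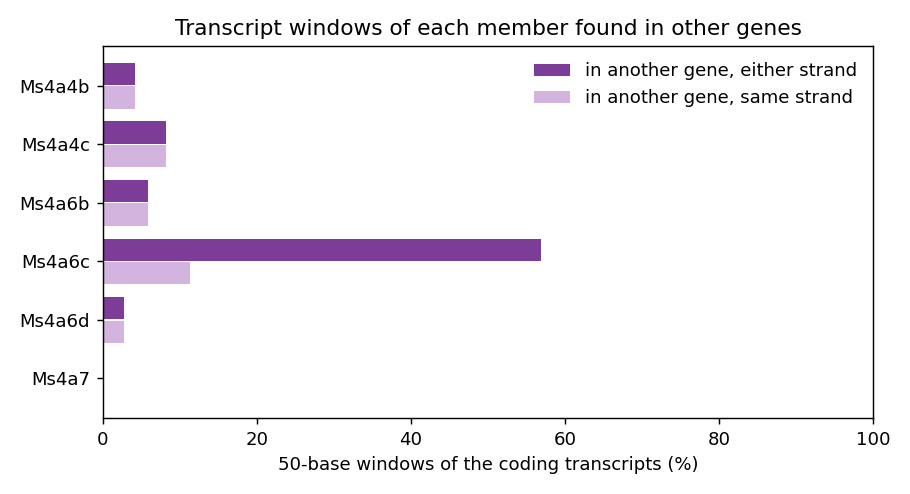
Percentage of the distinct 50-base windows in the coding transcripts of each member that also occur in a transcript of another gene, on either strand (dark) or on the same strand (light). Ms4a6c stands out with 56.9% on either strand and 11.3% on the same strand, and Ms4a7 has none.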

How the data were processed

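RNA of sorted colonic macrophages was measured in 3 libraries, 1 per genotype, with groups taken from the sample titles. The authors deposited FPKM per gene, per the file headers. Per the submitters' processing notes the tools were TopHat2 2.1.0 and Cufflinks 2.2.1 and the build was mm10, with no roles stated. FPKM divides by transcript length and library depth, so abundant genes weigh on the rest. The 10 most abundant held 16.6% of the total in the library labelled Tle3cKO, 17.0% in Tle4cKO and 18.9% in WT. Absolute depth is unknown, and no counting interval is given. Relative depth was the commonest ratio of values under 0.3 FPKM in both libraries. A value of 0 may be a failed estimate and is called listed at 0.

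Log2 ratios of FPKM plus a pseudocount of 1 were computed for 11114 genes averaging 1 FPKM or more, and all 6 measured members passed. With 1 library per group no test was run. Differences of at least 2-fold were counted on that log2(FPKM + 1) scale. Steps were tested on simulated data. The members and gene lists were chosen with earlier results of these data known. Named genes were the members, the other family genes, the partner genes, the 2 most abundant genes of each marker list and the 3 genes closest to a member spanning at least 0.5 on the log2 scale. The Cd3 chains, Cd2, Lck, Thy1, Nkg7, Ccr2, Chil3, Ly6c2, Cd163, Cd209f, Ifi44 and Prg2 were named after their values were seen. Symbols without a row were looked up among RefSeq synonyms. Gene models and transcripts are from GENCODE M21, and promoters from RefSeq (GRCm38.p6). Identity is matches over alignment columns. Other settings were pseudocounts, scalings, filters and thresholds. Python 3.11.15, pandas 2.3.3, numpy 2.4.6, Biopython 1.88 and matplotlib 3.10.9 were used.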

Additional observations from a re-analysis of the deposited data

How the results depend on the processing

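Under 3 other scalings (equal totals, upper quartile, median ratio) all 54 rescaled log2 ratios of members kept their sign. Pseudocounts of 0.1 and 5 and other filters cannot turn a sign. Of 123 recomputed ratios 4 moved by at least 0.1, all of Ms4a4b with another pseudocount: in the library labelled Tle3cKO against WT it was -0.44 at 0.1 and -0.12 at 5, and in Tle4cKO against WT it was -0.55 at 0.1 and -0.14 at 5. The filter at 5 FPKM left out Ms4a4b. The median of the members in Tle4cKO against WT was -0.12 with a pseudocount of 5 and -0.11 with the filter at 5 FPKM, beside -0.23. In the library labelled Tle3cKO against WT, equal totals brought the median of the members to -0.06, beside -0.16. The median of all genes there was 0.08, beside -0.01. Several members moved by just under 0.1 with it, as Ms4a7 did from -0.19 to -0.09. No member passed a threshold of 2-fold under any of these settings, or one of 1.5-fold or 3-fold with a pseudocount of 1. With no pseudocount Ms4a4b was just past 1.5-fold, its FPKM in WT being 1.5007 times that in Tle4cKO. In the order labelled Tle3cKO against WT, Tle4cKO against WT and labelled Tle3cKO against Tle4cKO, the genes past the threshold were 47, 72 and 81. They were 150, 159 and 195 when 0.1 was added, 17, 22 and 21 when 5 was added, and 25, 29 and 39 with the filter at 5 FPKM. They were 298, 323 and 337 at 1.5-fold and 13, 23 and 20 at 3-fold. Equal totals moved the split for the library labelled Tle3cKO against WT to 40 genes higher and 20 lower, beside 24 and 23. No paired analysis was possible because each genotype has 1 library, and for the same reason none could be left out. Absolute depth is unknown, which leaves the precision of Ms4a4b, the lowest member, unknown.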

Other observations

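Gm8369, a gene between Ms4a6c and Ms4a6b in the cluster, had 1.37 FPKM in the library labelled Tle3cKO, 0.911 in Tle4cKO and 0.344 in WT. Its mean of 0.875 FPKM is under the minimum used for comparisons, and it was named after its values were seen. The rows 1700017D01Rik and 1700025F22Rik, RefSeq synonyms of Ms4a20 and Ms4a19, were listed at 0 in every library.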
